A study of Mus musculus with 8 samples.

Results

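The 6 peaks described here are all the rows of a deposited ATAC-seq peak table that start in 2 windows of the mouse genome, out of 6425 peaks in the table. The first window, on chromosome 5 from 45600000 to 46000000 (mm10), covers Lcorl and the neighbouring gene Ncapg and held 4 peaks. The second, on chromosome 7 from 124200000 to 124400000, covers the far part of Hs3st4 and held 2. Both windows were picked because peaks in them stood higher after myoglobin, so the myoglobin and vehicle values of these peaks are given as a description, without a test.

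ATAC-seq uses the Tn5 transposase to cut and tag accessible DNA. It was applied to kidney tubuloids, epithelial structures grown in Matrigel from digested renal cortex, here of wild-type mice. The 4 vehicle libraries and the 4 myoglobin libraries (12 h of exposure) shared genotype, tissue and culture; the labels give no other difference between them, nor a dose of myoglobin. Myoglobin is the haem protein set free by injured muscle. The series text names 4 mice but ties no library to a mouse, so the spread given below is between libraries and may be partly technical. Of 18 tubule epithelium markers, 5 (Cdh1, Cdh16, Epcam, Pax2 and Scnn1g) had a peak assigned to them in the table. These peaks summed to 102 to 125 in vehicle and 101 to 124 in myoglobin libraries. Peaks to which the table assigned no gene were left out of that sum, such as the peak in the span of Slc12a3, a sodium chloride cotransporter gene. The Slc12a3 peak, picked for its profile as described below, stood at 3, 4, 10 and 4 in vehicle and at 23, 34, 24 and 19 in myoglobin libraries. The table assigned no peak to any of the 5 endothelial, 5 fibroblast and pericyte, 5 immune or 5 podocyte markers, so its peaks say little about which cells were present.

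Lcorl encodes a ligand-dependent nuclear receptor corepressor-like protein, a DNA-binding protein related to LCOR. One product of the gene is known as an accessory subunit of Polycomb repressive complex 2 (PRC2), which methylates histone H3. Ncapg, next to it, encodes a subunit of condensin I, the complex that compacts chromosomes in mitosis. The region of the 2 genes is well known from genetic studies of body size in people and livestock. Hs3st4 encodes a heparan sulfate 3-O-sulfotransferase, a Golgi enzyme that adds a rare late sulfate group to heparan sulfate chains. Those chains sit on cell surfaces and in basement membranes, also in kidney, and bind growth factors. Hs3st4 itself is best known from the nervous system.

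The 6 peaks were of 2 kinds. The Ncapg peak (45669692 to 45669944, 253 bp) and the Lcorl promoter peak (45857353 to 45858021, 669 bp) lay at transcription start sites, their centres 101 and 72 bp away by the deposited table. The other 4, called inner peaks here, had no gene in the table and lay deep inside a RefSeq gene span, with no further RefSeq gene at the same place. Their place relative to exons was not analysed here, as gene spans and not exons were used. The larger Lcorl inner peak (45730436 to 45730644, 209 bp) and the smaller one (45731358 to 45731483, 126 bp) were 713 bp apart. They lay 127075 and 126194 bp from the Lcorl start of the deposited table (45857615), 79.1% and 78.5% of the way along the gene. The smaller Hs3st4 inner peak (chromosome 7, 124272958 to 124273117, 160 bp) and the larger one (124294049 to 124294267, 219 bp) were 20931 bp apart, 69.7% and 74.7% of the way along a gene of 417 kb. No peak of the table lay nearer than 290 kb to the RefSeq start of Hs3st4, so its own promoter has no value here.

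Widths placed the Lcorl promoter peak among the widest of the table and the inner peaks among the ordinary ones. The Lcorl promoter peak was wider than 99.3% of all peaks. The inner peaks were wider than 51.3% and 16.2% (larger and smaller, Lcorl) and 54.6% and 32.6% (larger and smaller, Hs3st4), around a median of 204 bp for all peaks.

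The 2 promoters are shown because peaks cover them and because one stood higher with myoglobin while its neighbour's groups overlapped. Each line gives the 250 bases before the transcription start, 5′ to 3′ on the gene's own strand, as RefSeq gives it for GRCm38.p6 (mm10). The Lcorl stretch is chr5:45857541-45857790 on the minus strand, and the Ncapg stretch is chr5:45669675-45669924 on the plus strand. The Lcorl peak distances above use another start, 45857615 from the deposited table, which lies inside the Lcorl stretch. By that start, part of the stretch comes after the start. Capitals mark matches, on either strand, to the motifs named below.
Lcorl promoter: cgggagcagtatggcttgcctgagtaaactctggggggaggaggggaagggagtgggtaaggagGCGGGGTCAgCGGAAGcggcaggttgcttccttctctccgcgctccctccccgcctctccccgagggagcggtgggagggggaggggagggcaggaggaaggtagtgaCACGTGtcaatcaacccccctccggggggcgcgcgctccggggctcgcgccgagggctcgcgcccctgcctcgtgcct
Ncapg promoter: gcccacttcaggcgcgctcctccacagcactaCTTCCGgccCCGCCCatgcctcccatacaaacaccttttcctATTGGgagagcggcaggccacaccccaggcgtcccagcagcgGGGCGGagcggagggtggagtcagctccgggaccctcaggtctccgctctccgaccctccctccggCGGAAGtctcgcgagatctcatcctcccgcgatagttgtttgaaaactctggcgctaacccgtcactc
The Lcorl stretch held 3 matches. They were an E-box (CACGTG, bound by many basic helix-loop-helix factors), an ETS core (CGGAAG), and a core of the antioxidant response element (TGACNNNGC, here on the other strand). The E-box lay 78 bases before the RefSeq start of the stretch, a position that does not hold for the start in the deposited table. The Ncapg stretch held 2 GC boxes (GGGCGG), 1 CCAAT box and 2 ETS cores, and a further ETS core lay after the start. None of the matches overlapped. Neither promoter held an AP-1 site (TGANTCA) or a TATA box (TATAAA).

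Among 32851 RefSeq promoters of 300 bases, the E-box was in 7.15%, the ETS core in 16.9%, the antioxidant core in 12.4%, the GC box in 35.7%, the CCAAT box in 37.4%, the AP-1 site in 7.81% and the TATA box in 13.6%. Among the 4351 of them under a peak, as both promoters here were, the GC box was in 78.0%, the CCAAT box in 50.5%, the ETS core in 36.6% and the antioxidant core in 17.0%. The E-box was in 10.2% of those, the AP-1 site in 4.23% and the TATA box in 3.63%. A match is a run of letters and not a bound site, and a missing match says only that the letters are not in the window. The Lcorl promoter, all of it under the peak, had a GC content of 69.7% and the Ncapg promoter 65.0%, against a median of 64.0% for the 4351 promoters under a peak. A second RefSeq start of Lcorl, under no peak, had 62.0%. The Hs3st4 promoter, also under no peak of the table, had 79.3%, more than 98.7% of all promoters. The inner peaks have no sequence in the tables used here, and none is printed.

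Peak values are reads scaled between libraries by the authors and rounded to whole numbers, and are written here as scaled reads. The spacing of those whole numbers was used to estimate each library's scaling factor and so its unscaled reads in peaks, 130528 to 200744 in vehicle and 67598 to 124275 in myoglobin libraries. The myoglobin mean was 0.59 times that of vehicle, so depth moved with treatment. Its part in the results was not tested beyond the unscaled reads given below. In bulk libraries, more cells with an open site and a site more open in each cell cannot be told apart. Whether the number of DNA copies at these sites differed was not tested.

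The larger Hs3st4 inner peak had the largest log2 difference of the 6425 peaks. Its values were 1, 1, 3 and 1 scaled reads in vehicle replicates 1 to 4, and 58, 72, 99 and 87 in myoglobin replicates 1 to 4. The lowest myoglobin library stood far above the highest vehicle library. The smaller Hs3st4 inner peak had 1, 1, 4 and 0 in vehicle and 25, 26, 39 and 21 in myoglobin, again with a wide gap between the groups. Vehicle replicate 3 gave 7 of the scaled reads summed over the 2 peaks and the other vehicle libraries 1 or 2 each. With myoglobin the sums were 83, 98, 138 and 108.

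Lcorl showed the same pattern at lower values. Its larger inner peak stood at 1 in each vehicle library and at 36, 26, 24 and 34 in the myoglobin libraries. The smaller one had 1, 0, 1 and 0 in vehicle and 13, 12, 11 and 19 in myoglobin. Its vehicle mean, 0.5 ± 0.577 scaled reads (SD, n = 4), was the lowest of the whole table. The sums over both peaks were 1 or 2 in vehicle and 49, 38, 35 and 53 in myoglobin.

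**Figure D1:**
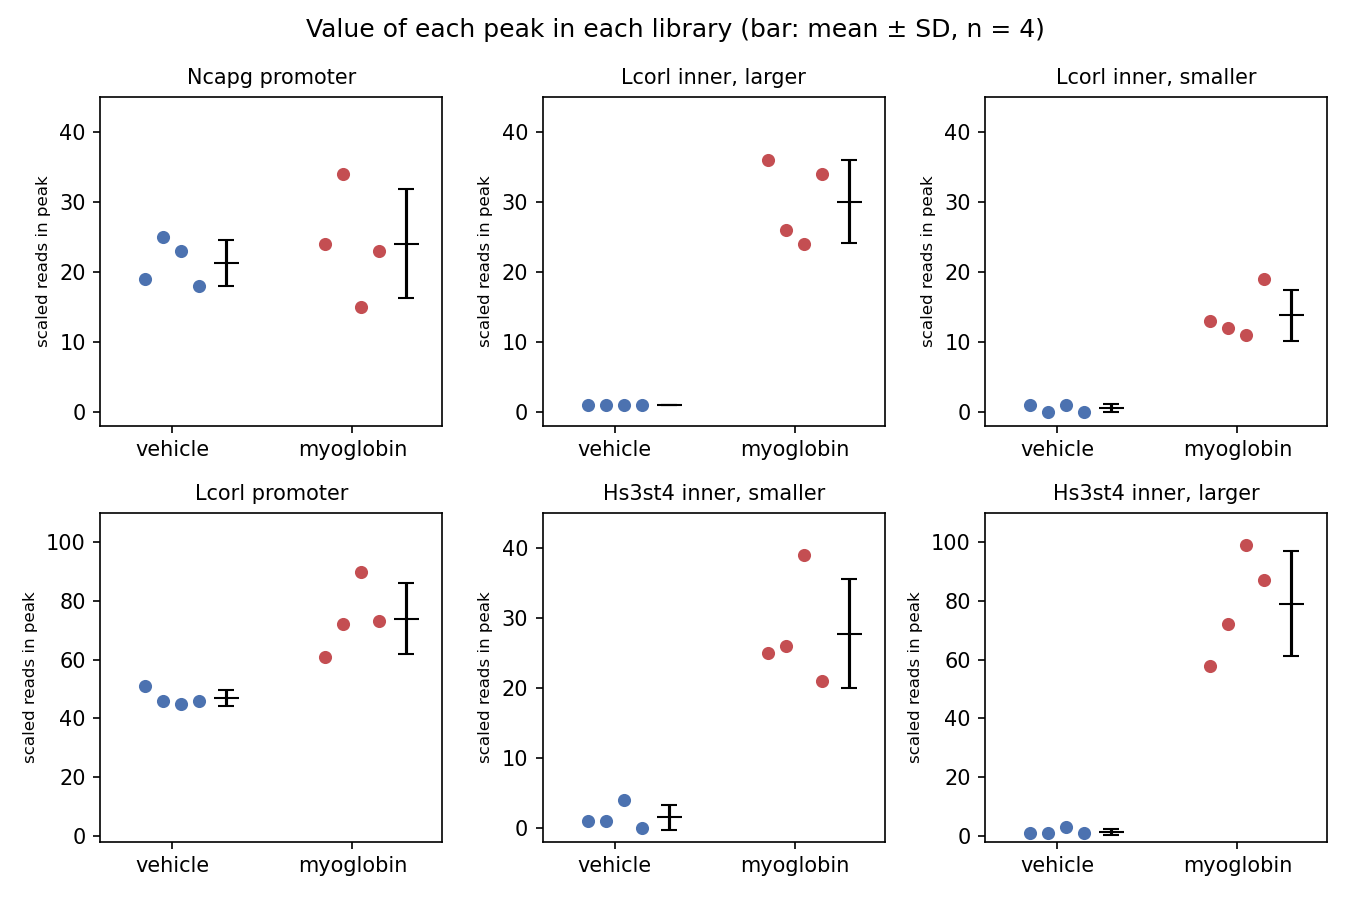
Value of each of the 6 peaks (scaled reads, vertical axis) in the 4 vehicle libraries (blue) and the 4 myoglobin libraries (red), with the mean ± SD of each group in black (n = 4). The 4 inner peaks sit between 0 and 4 in vehicle and between 11 and 99 in myoglobin; the Lcorl promoter peak stands at 45 to 51 in vehicle and 61 to 90 in myoglobin, and the Ncapg groups overlap.

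The Lcorl promoter peak differed from the inner peaks in having a high value without myoglobin. It stood at 51, 46, 45 and 46 in vehicle and at 61, 72, 90 and 73 in myoglobin, and the groups did not overlap. Its vehicle mean was above that of 95.4% of all peaks. The difference of the means, 27.0 scaled reads, was close to that of the larger Lcorl inner peak, 29.0, and of the smaller Hs3st4 inner peak, 26.2. On the log2(value + 1) scale the promoter difference was 0.63 ± 0.14 (SE), against 3.93 ± 0.39 at the larger Lcorl inner peak.

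Ncapg, whose promoter is 60.5 kb from the nearer Lcorl inner peak, showed no such separation. Its promoter peak stood at 19, 25, 23 and 18 in vehicle and at 24, 34, 15 and 23 in myoglobin. The myoglobin libraries spanned the whole vehicle range. The log2 difference was 0.13 ± 0.23 (SE), and without myoglobin replicate 2 it was -0.05. The peak also covers the start of 1600023N17Rik, a long non-coding RNA gene on the opposite strand, so it cannot be given to Ncapg alone.

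In the limma fit over all peaks, 5 of these 6 peaks passed as higher (adjusted p under 0.05), where 0.202% of all peaks did, and 0 passed as lower, where 0.0467% did. The same 5 had every myoglobin library above every vehicle library, as 1.45% of all peaks had (3.04% did not overlap in one direction or the other). Since that contrast chose the windows, nothing is read from these counts. The 4 inner peaks held the ranks 1 to 4 by log2 difference, from 3.35 ± 0.52 (SE) at the smaller Lcorl to 5.04 ± 0.30 at the larger Hs3st4 inner peak, and the next peak of the table stood at 2.61. The Lcorl promoter peak had rank 170.

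Estimated reads showed the same without any scaling. Over the 4 inner peaks, the vehicle libraries held between 18 and 27 reads in all, the range left by the rounding, out of 668687 reads in peaks. The myoglobin libraries held 468 of 394611. Per library, vehicle replicates 1 to 4 held at most 8, 6, 9 and 4, and myoglobin replicates 132, 89, 93 and 154, so each myoglobin library held more inner-peak reads than any vehicle library although each was shallower. Among the myoglobin libraries, the 2 shallowest held the fewest. Corrected for depth, the ratio was 29.4 when the most vehicle reads are taken. This ratio pools the libraries of each group at peaks picked for the contrast, and is a description. Amplified reads are also not independent molecules.

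The separation at the Lcorl promoter showed only once depth was corrected for, and the choice of scaling changed the difference little. The log2 difference was 0.63 as deposited, 0.64 with median-ratio scaling and 0.63 with scaling to equal totals. Before scaling, the Lcorl promoter peak held 68 reads in vehicle replicate 1, 73 or 74 in replicate 2, 46 in replicate 3 and 63 in replicate 4, against 61, 47, 48 and 70 in myoglobin. Those groups overlapped. Per 100000 reads in peaks the values were 41.0, 36.9, 35.2 and 36.8 in vehicle and 49.1, 57.0, 71.0 and 58.2 in myoglobin, which did not overlap. The highest was in myoglobin replicate 3, the shallowest library. The part of depth in this difference was not tested.

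**Figure D2:**
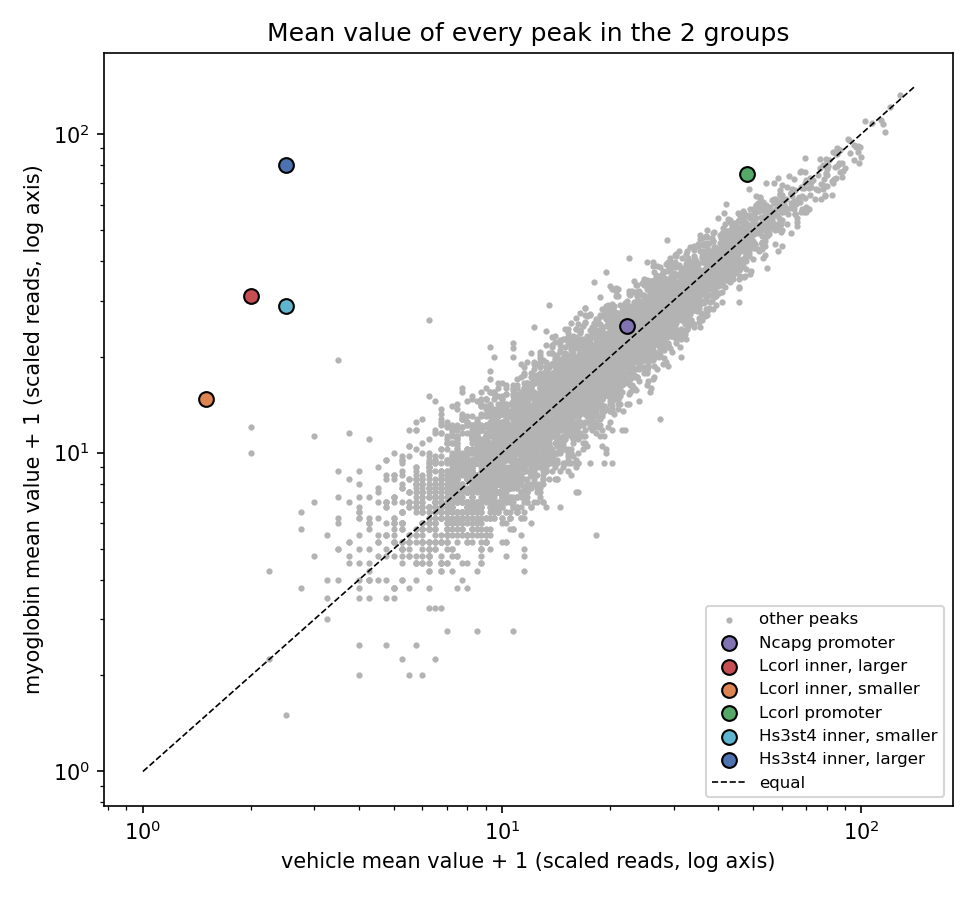
Mean value plus 1 of every peak in vehicle (horizontal) and myoglobin (vertical) libraries, both on log axes, with the 6 peaks in colour, the others in grey and a dashed line where the groups are equal. The 4 inner peaks stand apart at the upper left; the Lcorl promoter peak is at the edge of the cloud and the Ncapg peak within it.

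Levels were compared per 100 bp of peak width, as peaks of different width gather different numbers of reads. In vehicle the promoter peaks stood at 8.40 ± 1.31 (Ncapg) and 7.03 ± 0.405 (Lcorl) scaled reads per 100 bp (SD, n = 4), near the median of 7.75 over all peaks. The inner peaks stood at 0.397 to 0.938. In myoglobin the larger Hs3st4 inner peak led at 36.1 ± 8.14 scaled reads per 100 bp, and its lowest library, at 26.5, was above every library of the other 5 peaks. Next were the smaller Hs3st4 inner peak at 17.3 ± 4.88 and the larger Lcorl one at 14.4 ± 2.82, followed by the Lcorl promoter at 11.1 ± 1.79, the smaller Lcorl inner peak at 10.9 ± 2.85 and Ncapg at 9.49 ± 3.08. From the second to the sixth place, neighbours in that order had overlapping libraries.

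Together the inner peaks came to 4, 3, 9 and 2 scaled reads in the vehicle libraries and to 132, 136, 173 and 161 in the myoglobin libraries. That was at most 0.0071% of a vehicle library and 0.106 to 0.137% of a myoglobin library. Relative to the Lcorl promoter peak, the Lcorl inner peaks summed to 2.17 to 4.44% in vehicle and to 80.3, 52.8, 38.9 and 72.6% in myoglobin replicates 1 to 4. The lowest of these percentages was in myoglobin replicate 3, where the promoter peak was highest and the Lcorl inner peaks summed to 35. The Hs3st4 inner peaks were highest in that library, at 138.

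The proportions among the inner peaks rest on 6 to 83 estimated reads per peak and myoglobin library, and their spread was not tested against counting error. The larger Hs3st4 peak was 2.32, 2.77, 2.54 and 4.14 times the smaller. The larger Lcorl peak was 2.77, 2.17, 2.18 and 1.79 times the smaller. Hs3st4 inner values were 1.69, 2.58, 3.94 and 2.04 times those of Lcorl. The coefficient of variation over the myoglobin libraries was 22.6% at the larger Hs3st4 peak, where counting alone would give 13.3%, and 28.1% against 22.8% at the smaller. At the Lcorl inner peaks it was below what counting alone would give, at 19.6% against 20.8% and 26.1% against 30.8%.

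**Figure D3:**
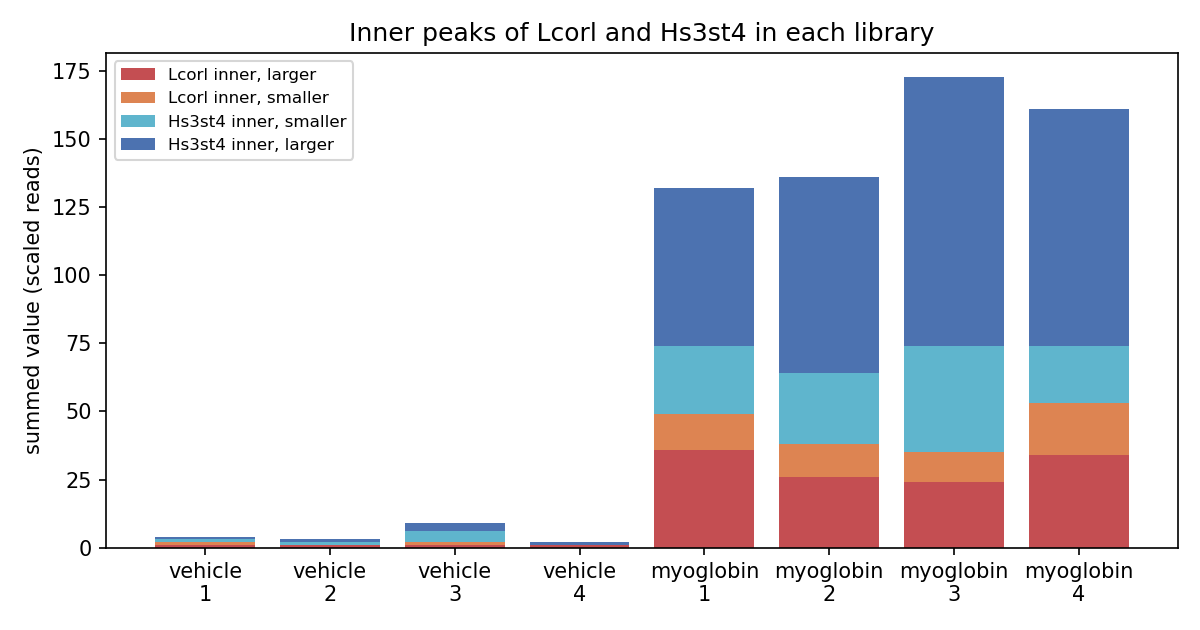
Summed value (scaled reads, vertical axis) of the 4 inner peaks in each library, stacked by peak. The vehicle bars reach 2 to 9 and the myoglobin bars 132 to 173, with the largest part from the larger Hs3st4 inner peak.

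Peaks with almost no reads in vehicle were few, and most stayed low. The table held 34 peaks with a vehicle mean under 3, the 4 inner peaks among them, and 8 of the 34 had a myoglobin mean of 10 or more. Apart from the inner peaks the highest such mean was 18.5. Of the 31 peaks with a myoglobin mean under 3, none had a vehicle mean of 10 or more, and the highest was 9.75. These counts use the contrast that chose the windows and are a description. The peaks form 1 set for all libraries, and the sources used here do not say how a region open in few of them entered it.

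Around the windows, no peak passed as higher. Both regions were sparse. On chromosome 5 the next peak on the left was 176 kb from the Ncapg peak and the next on the right 4201 kb beyond the Lcorl promoter peak. On chromosome 7 the nearest peaks were 895 kb to the left of the Hs3st4 inner peaks and 1413 kb to the right. Within 1 Mb of the Lcorl window, 0 of 2 peaks passed in the limma fit, with 0 at an unadjusted p under 0.05. Within 1 Mb of the Hs3st4 window it was also 0 of 2, with 1 at an unadjusted p under 0.05. Of all peaks, 0.249% passed in either direction and 7.6% had an unadjusted p under 0.05, so counts of 0 over a few peaks say little.

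Lap3, a leucine aminopeptidase gene, had the peak next to the Lcorl window (45493284 to 45493423). It stood at 5, 7, 5 and 9 in vehicle and at 2, 11, 7 and 20 in myoglobin (log2 difference 0.27 ± 0.41, SE; limma adjusted p = 0.936). Qdpr, which encodes the dihydropteridine reductase that recycles tetrahydrobiopterin, had the other peak (45449965 to 45450588), with means of 79.2 ± 6.45 and 67.5 ± 10.2 and a log2 difference of -0.24 ± 0.13 (limma adjusted p = 0.675). The first peak on the far side was at Adgra3, an adhesion receptor gene (50058950 to 50059058), with means of 5.25 ± 1.71 and 5.0 ± 2.94. Its log2 difference was -0.14 ± 0.46 (limma adjusted p = 0.975). At each of the 3 peaks the groups overlapped.

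Left of the Hs3st4 window, a peak in the Lcmt1 span (chromosome 7, 123377864 to 123378006) was at 13, 13, 9 and 14 in vehicle and at 3, 6, 0 and 14 in myoglobin. Lcmt1 encodes a methyltransferase that acts on a protein phosphatase; the deposited table puts the peak 4836 bp from another start, of a gene it does not name. The log2 difference was -1.53 ± 0.45 (limma adjusted p = 0.185), opposite in sign to the inner peaks. Without myoglobin replicate 4, the one high myoglobin library, it was -2.11 with a limma adjusted p of 0.0248. Without myoglobin replicate 3, the shallowest library and the one at 0, it was -0.81 (limma adjusted p = 0.476). Leaving out the 2 shallowest libraries gave -0.76 (limma adjusted p = 0.567). The Arhgap17 promoter peak (123369867 to 123370302) had means of 77.2 ± 14.8 and 78.8 ± 9.98 and a log2 difference of 0.04 ± 0.13 (limma adjusted p = 0.977). To the right, the Gtf3c1 peak, at a gene of the RNA polymerase III machinery (125707634 to 125707922), had 24.2 ± 6.40 and 24.8 ± 7.93.

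**Figure D4:**
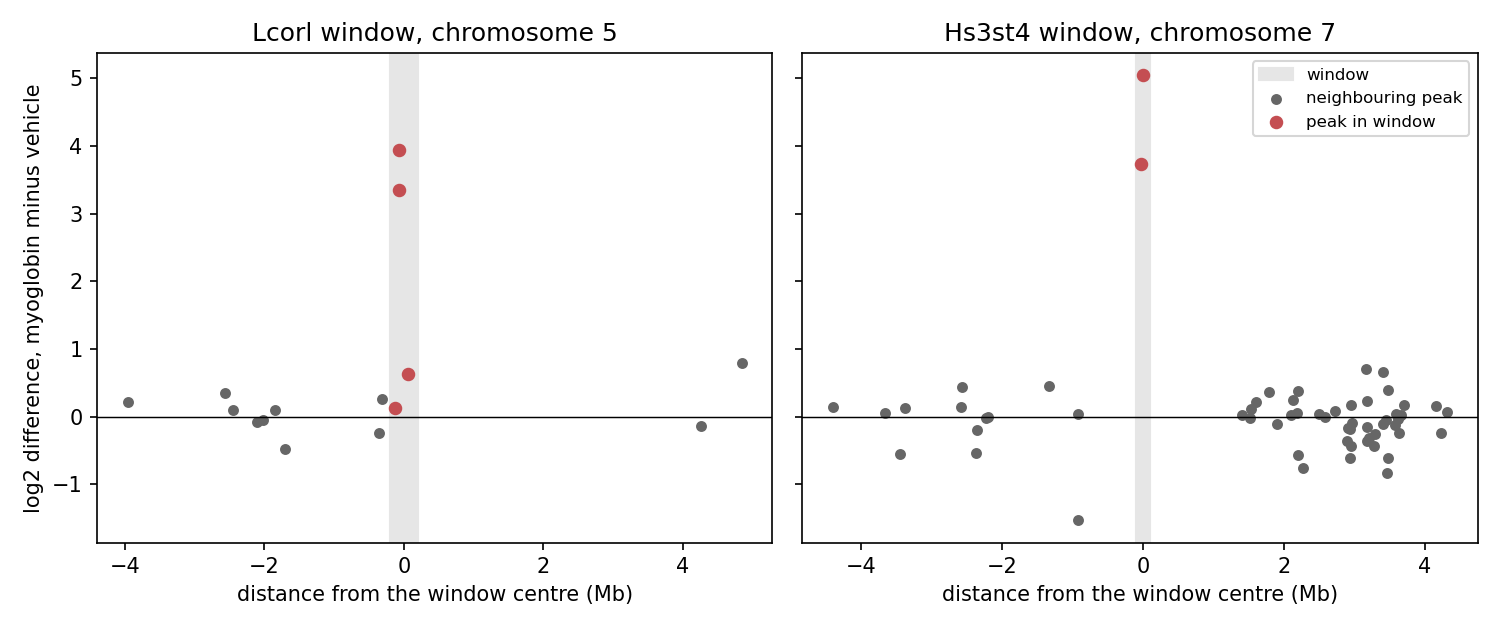
The log2 difference, myoglobin minus vehicle, of peaks (vertical axis) against their distance in Mb from the centre of the Lcorl window (left) and of the Hs3st4 window (right), with each window shaded and its peaks in red. The inner peaks lie between 3.35 and 5.04, and the neighbouring peaks in grey lie between -1.53 and 0.79.

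A wider neighbourhood held no call either. Within 5 Mb, 0 of 11 peaks around the Lcorl window passed, with a median log2 difference of 0.09 and 0 at an unadjusted p under 0.05. Around the Hs3st4 window 0 of 57 passed, with a median of -0.01 and 5 at an unadjusted p under 0.05. The median over all peaks was -0.02. On the rest of chromosome 5, 0 of 429 peaks passed, with 38 at an unadjusted limma p under 0.05. On the rest of chromosome 7, 0 of 513 passed as higher and 1 as lower, with 32 at an unadjusted limma p under 0.05. Over all peaks, 0.249% passed in either direction and 7.6% had an unadjusted limma p under 0.05.

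The share of each library's total that fell in the neighbourhood, windows left out, was lower in the mean with myoglobin, within the spread of the libraries. The peaks within 1 Mb of the Lcorl window took 0.0684 ± 0.00444% of the library total in vehicle and 0.0617 ± 0.00907% in myoglobin (SD, n = 4; p = 0.257 by exact two-sided permutation of the libraries, 70 assignments, adjusted over 4 shares 0.343). Those within 1 Mb of the Hs3st4 window took 0.0713 ± 0.00948% and 0.0672 ± 0.00759% (exact permutation p = 0.571, adjusted 0.571). With 2 peaks behind each, these shares speak for those peaks, none of them closer than 176 kb to a peak of the windows.

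Over whole chromosomes the differences were small. Chromosome 5 outside the window took 7.06 ± 0.153% in vehicle and 7.25 ± 0.096% in myoglobin (n = 4; exact permutation p = 0.0857, adjusted 0.171). Chromosome 7 outside the window took 8.98 ± 0.0634% and 8.71 ± 0.0962%, lower in each of the 4 myoglobin libraries than in any vehicle library (exact permutation p = 0.0286, the smallest this design allows, adjusted 0.114). The chromosome 7 share was thus 0.97 times that of vehicle while the Hs3st4 inner peaks on it were higher, and after adjustment it did not pass.

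Genes of heparan sulfate synthesis were examined because of Hs3st4. The list also held genes of chain remodelling and of the core proteins that carry the chains, such as Sdc2 and Agrn. Of 46 genes, 18 had 1 peak each in the table, and 0 rose or fell in the limma fit (lowest adjusted p = 0.565, 4 at an unadjusted p under 0.05). At the shares over all peaks, 0.249% passing and 7.6% at an unadjusted p under 0.05, a count of 0 calls is what most lists of this size would show, here and in the lists that follow. The log2 differences ran from -0.51 to 0.55, with 12 above 0 and a median of 0.11, against -0.02 over all peaks. Ugdh, which makes the UDP-glucuronate that the chains are built from, had means of 22.5 ± 4.65 (vehicle) and 32.5 ± 7.23 (myoglobin; log2 difference 0.51 ± 0.21, limma adjusted p = 0.565). Papss1, which makes the sulfate donor, stood at 36.0 ± 6.16 and 46.8 ± 4.35 (0.38 ± 0.17, limma adjusted p = 0.589).

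None of the relatives of Hs3st4 that had peaks was called. Hs3st3a1 and Hs3st3b1, genes of the same sulfotransferase family, had means of 30.5 ± 3.42 and 40.0 ± 5.42 in vehicle and of 34.0 ± 10.7 and 35.5 ± 2.65 in myoglobin. Their log2 differences were 0.11 ± 0.19 and -0.16 ± 0.17 (limma adjusted p = 0.943 and 0.896). The N-sulfotransferase gene Ndst2 stood at 21.2 ± 3.30 and 29.0 ± 3.83 (0.43 ± 0.21, limma adjusted p = 0.632), and the 6-O-sulfotransferase gene Hs6st1 at 11.0 ± 1.15 and 7.50 ± 1.73 (-0.51 ± 0.34, limma adjusted p = 0.757). The syndecan core protein genes Sdc1, Sdc2 and Sdc4 had log2 differences of -0.17, 0.55 and 0.10, none of them called.

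Known partners of Lcorl and its relatives were the next list. Of 21 genes of the Lcor family, its CtBP partners, PRC2 and related histone deacetylases and methyltransferases, 12 had a peak and 0 passed in the limma fit (lowest adjusted p = 0.551, 2 at an unadjusted p under 0.05, median log2 difference 0.09). Mtf2, a PRC2 accessory gene, stood at 6, 6, 9 and 4 in vehicle and 11, 9, 11 and 21 in myoglobin (0.92 ± 0.35, limma adjusted p = 0.551). Ctbp1, a corepressor gene, stood at 23.8 ± 8.30 and 33.5 ± 4.65 (0.53 ± 0.21, limma adjusted p = 0.551). The core PRC2 genes Ezh2 and Suz12 had log2 differences of -0.48 ± 0.31 and 0.29 ± 0.26.

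The condensin genes, taken for Ncapg, had peaks at 4 of 8 members including Ncapg itself. Of these 0 passed in the limma fit and 0 had an unadjusted p under 0.05. The lowest adjusted p was 0.716, with a median log2 difference of -0.26. Ncapd2 stood at 13.8 ± 3.59 in vehicle and 9.50 ± 3.87 in myoglobin (-0.53 ± 0.32, limma adjusted p = 0.716), and Ncaph at 20.8 ± 2.63 and 16.5 ± 5.45 (-0.35 ± 0.25, limma adjusted p = 0.770). Ncapg2, of condensin II, was at -0.16 ± 0.22.

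Peaks elsewhere with the most similar profile over the 8 libraries were picked by their Pearson correlation with the mean log2 profile of the inner peaks, among 6235 peaks with a mean value of 5 or more. The profile is mostly the step from vehicle to myoglobin, so the likeness restates the contrast and is a description. The 5 nearest were at Paat (r = 0.976), 26408 bp outside Fbxo2 (0.971), at Specc1l (0.962), in the span of Slc12a3, the thiazide-sensitive sodium chloride cotransporter gene (0.946), and at the olfactory receptor gene Olfr1423 (0.930). The Paat peak stood at 13.0 ± 0.816 in vehicle and 22.2 ± 1.71 in myoglobin, a log2 difference of 0.73. The Fbxo2-side peak came closest to the inner peaks in having a value of 1 in each vehicle library, with 10, 9, 11 and 6 in myoglobin. Among the 6 peaks themselves, the inner peaks correlated with each other at 0.937 to 0.982, with the Lcorl promoter at 0.875 to 0.918 and with Ncapg at 0.170 to 0.214, and the Lcorl promoter with Ncapg at -0.0742, over the same 8 libraries and with the same step in each.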

How the data were processed

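Accessibility was measured by ATAC-seq in 8 libraries, 4 vehicle and 4 myoglobin (12 h), from 50000 cells each per the labels' protocols. Build mm10 and the tools DESeq2 1.36.0, featureCounts, Picard 3.0.0, Trimmomatic 0.39 and STAR 2.7.10a are named, per the submitters' processing notes. The peak caller, duplicate handling and any Tn5 shift are not given in the sources used here. The deposited values are treated as a score, because they are reads that the authors scaled and rounded: totals run from 124415 to 126782 and whole numbers recur or are skipped at regular steps. Distances to start sites are in bp as deposited.

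Scaling factors (searched from 0.55 to 2.5) were estimated by likelihood from those steps, and a column divided by its factor gives estimated reads. On simulated columns, 50 of 50 random factors came back within 3%, as did 4 of 7 exact simple ratios, so a factor that is such a ratio could be missed. The factor of myoglobin replicate 1 was the least certain, 0.992 to 1.01. The fit was also tested on simulated data. The test was limma 3.58.1 in R 4.3.3 on log2(value + 1) with a variance trend (prior of 78.5 degrees of freedom), all 6425 peaks kept and p-values adjusted by Benjamini-Hochberg. Fold changes on this scale understate the change of low peaks. Shares were compared by exact two-sided permutation. Members, lists and motifs were chosen with earlier results of these data known. Named peaks were all members, the 2 smallest p of each list and neighbourhood, the nearest peak on each side, and the 5 most alike profiles; other list peaks were named for their family. Alternatives were pseudocounts of 0.1 and 5, a filter at a mean of 10, 2 other scalings, a replicate block, each library left out, the 2 shallowest left out, the highest peak left out and 5 Mb neighbourhoods.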

Additional observations from a re-analysis of the deposited data

Results flagged for a closer look

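Dixon's criterion, a gap that takes up most of a group's range, was applied to 74 sets of 4 libraries and met in 6, where chance would give about 3.7. The Lcorl promoter peak was at 51 in vehicle replicate 1, with the others at 45 to 46. The larger Hs3st4 inner peak was at 3 in vehicle replicate 3, with the others at 1, a case where any other whole number would have stood out. The Mtf2 peak was at 21 in myoglobin replicate 4, with the others at 9 to 11. The Hs3st3b1 peak was at 32 in 1 vehicle library, with the others at 42 to 44. The Slc12a3 peak was at 10 in vehicle replicate 3, with the others at 3 to 4. The chromosome 7 share outside the window was 8.57% in myoglobin replicate 4, with the others at 8.74 to 8.77%.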

How the results depend on the processing

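The log2 differences of the 6 peaks stayed within 1 SD of the libraries in 80 of 89 alternatives, and those of 27 other named peaks kept their side of the threshold in 388 of 399. The exceptions were the Lcmt1 peak, given above, and 10 at the called peaks beside Fbxo2 (2.13 to 3.01) and at Specc1l (0.81 to 0.92), which kept their direction and missed the threshold. Of the 9 others, 8 came from the pseudocount: with 0.1 and 5 the larger Hs3st4 inner peak gave 5.77 and 3.68, the smaller 5.01 and 2.34, the larger Lcorl 4.75 and 2.53 and the smaller 5.35 and 1.76. Without the 2 shallowest libraries, myoglobin replicates 2 and 3, the larger Lcorl inner peak gave 4.17. With 1 library left out they ranged from 4.93 to 5.29, 3.37 to 4.14, 3.84 to 4.03 and 3.19 to 3.52, and the Lcorl promoter from 0.53 to 0.72. Over all peaks, the 16 calls became 9 with a pseudocount of 0.1 and 21 with a pseudocount of 5. They became 7 to 15 with 1 library left out (7, 9 and 8 without vehicle replicates 1, 2 and 4). The count was 19 without the 2 shallowest libraries and 10 with the replicate number as a block. Same-numbered libraries did not deviate together (r from -0.013 to 0.026, other pairs -0.062 to 0.039). At a median value of 16 per peak and library, counting noise could hide a shared mouse. Whether the numbers pair the libraries is therefore not known. The replicate block changed no other call. Near the Hs3st4 window, 0 to 1 peaks passed with 1 library left out, the 1 without myoglobin replicate 4. The chromosome 7 share difference, -0.266 percentage points, was -0.31 without the 2 shallowest libraries (exact permutation p = 0.0667, the smallest 4 against 2 allows). Depth limits the low vehicle values, where a value of 1 stands for 1 or 2 reads, and for 1 in replicate 3.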
